A study of Homo sapiens with 6 samples.

Results

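Chromosome 13 held 278 genes, of any annotated type, whose FPKM averaged 1 or more in the 6 libraries of MDA-MB-231 cells, out of 15934 genes of the genome that passed the same minimum. They were chosen by their GENCODE 29 position and this minimum alone. The chromosome and a division of its long arm at 45 Mb were proposed with the ratio between the groups already seen. The ratios along the arm are therefore a description with no test. The p-values given for changes of single genes come from 1 fit over all 15934 genes. Those for departures from neighbours come from a separate fit over 15359 genes, and those with a library left out from refits. Position is the midpoint of a gene: 104 genes lay below 45 Mb and 174 above it, the first at 18.2 Mb and the last at 114.3 Mb. By type, 202 were protein-coding and 76 were of other types, of which 33 genes were shorter than 200 bp. MDA-MB-231 is an established breast adenocarcinoma line, given in the labels as basal-like. One derivative carries a tetracycline-inducible hairpin against the long non-coding RNA HOTAIR (Tet-shHOTAIR) and the other an inducible hairpin of scrambled sequence (Tet-shCtrl). Doxycycline at 1 µg/ml was given to both for 96 h, so every library is of an induced culture and none is of cells without doxycycline. Each group has 3 libraries, numbered 1 to 3 and said to be independent repeats. The labels name 1 derivative per hairpin and do not say whether it is a clone or a pool. The p-values thus set 3 cultures of each derivative against each other, and an effect of the hairpin and another difference between the derivatives cannot be told apart.

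The human chromosome 13 is acrocentric: its short arm carries repeated ribosomal RNA genes, and its protein-coding genes lie on the long arm, which is among the most gene-poor of the genome. The long arm is best known in tumours for RB1, the retinoblastoma gene that restrains entry into S phase, for BRCA2, which acts in the repair of broken DNA, and for the DLEU region next to RB1, which is often deleted in chronic lymphocytic leukaemia. A pair of host transcripts carry clusters of microRNAs that act in opposite ways on proliferation. MIR17HG carries the miR-17-92 cluster, amplified in some lymphomas, and DLEU2 carries miR-15a and miR-16-1, which repress BCL2 and cell-cycle messages.

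The mature microRNAs of these hosts are shown because both hosts lie above 45 Mb and both were higher in the shHOTAIR libraries. The libraries measure the polyadenylated host RNAs and not the mature microRNAs. Sequences are from RefSeq (GRCh38.p14), 5′ to 3′, and capitals mark the seed, bases 2 to 8. In MIR17HG, on the plus strand between 91350618 and 91351382, lie:
hsa-miR-17-5p: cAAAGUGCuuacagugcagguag
hsa-miR-18a-5p: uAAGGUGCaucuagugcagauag
hsa-miR-19a-3p: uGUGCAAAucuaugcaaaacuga
hsa-miR-20a-5p: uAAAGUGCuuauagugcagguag
hsa-miR-19b-3p: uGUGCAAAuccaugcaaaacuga
hsa-miR-92a-3p: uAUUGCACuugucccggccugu
In DLEU2, on the minus strand between 50049027 and 50049188, lie:
hsa-miR-15a-5p: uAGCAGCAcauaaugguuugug
hsa-miR-16-5p: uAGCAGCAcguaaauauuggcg
The 8 microRNAs fall into 5 seed groups: miR-17-5p and miR-20a-5p share a seed, as do miR-19a-3p and miR-19b-3p, and miR-15a-5p and miR-16-5p, while miR-18a-5p and miR-92a-3p stand alone.

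A pair of sequences next to RefSeq starts of genes described below are shown. Whether either acts on its gene was not tested. COL4A1 and COL4A2, the paired genes of the collagen IV chains of basement membranes, are read in opposite directions from starts that RefSeq places 126 bases apart, and both were higher in shHOTAIR. The whole interval between their starts, chr13:110307158-110307283 (GRCh38.p14, plus strand), is 80.2% G or C and holds 20 CpG. Capitals mark the matches to CCAAT, at base 22, and GGGCGG, at base 62:
COL4A1-COL4A2 interval: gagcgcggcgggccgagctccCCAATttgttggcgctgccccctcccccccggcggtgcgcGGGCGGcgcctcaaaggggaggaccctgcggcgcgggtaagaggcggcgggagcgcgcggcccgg
KCTD4 had the largest departure from its neighbours among the genes that passed that test, which is described further on. It is shown beside this interval because the bases before its start look quite different. The 250 bases before its RefSeq start, chr13:45201046-45201295 (GRCh38.p14, minus strand), hold no CpG. That start lies upstream of the gene as GENCODE 29 draws it (chr13:45192853-45194717). Capitals mark the only match to CCAAT, read on the other strand:
KCTD4 upstream: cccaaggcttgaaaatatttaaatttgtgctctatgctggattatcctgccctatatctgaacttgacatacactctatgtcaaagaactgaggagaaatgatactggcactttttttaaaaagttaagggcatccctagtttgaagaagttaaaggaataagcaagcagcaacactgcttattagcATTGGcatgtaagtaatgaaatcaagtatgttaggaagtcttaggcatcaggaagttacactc

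HOTAIR itself was listed at 0, 0.0128 and 0.0132 FPKM in the shCtrl libraries and at 0, 0 and 0.0113 FPKM in the shHOTAIR libraries. These levels are close to 0 in both groups and overlap, so the labels could not be checked with it. The markers set for a basal-like line (VIM, CD44, CAV1, EGFR, MSN and AXL) were all above 1 FPKM in every library, with summed levels of 1907 to 2026 FPKM in shCtrl and 1529 to 1670 FPKM in shHOTAIR. Single markers moved both ways between the group means: VIM (948 to 393 FPKM from shCtrl to shHOTAIR) and MSN (229 to 177) were lower, and EGFR (76.7 to 157), CAV1 (116 to 218) and AXL (139 to 195) were higher. Of the luminal markers, 4 of 5 were under 1 FPKM in every library, as were all 3 leukocyte, 2 of 3 endothelial and 2 of 3 fibroblast markers. The exceptions were ERBB3 (12.3 to 7.17 FPKM), KDR (1.44 to 2.29) and COL1A1 (1.33 to 3.51). The sum of FPKM over all genes was lower in every shHOTAIR library (1.62e+06 to 1.82e+06) than in any shCtrl library (2.22e+06 to 2.57e+06). The part of these differences in the results below was not tested. The median FPKM of the tested genes was 13.2 to 13.5 in every library, and read depth is unknown because only FPKM values were used.

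Genes above 45 Mb had higher levels in shHOTAIR, and genes below it did not. The change of a gene is the mean log2(FPKM + 1) of the shHOTAIR libraries minus that of the shCtrl libraries, which understates changes of genes near 1 FPKM. Below 45 Mb the median change was -0.08 (quartiles -0.20 and 0.14, 104 genes), and 42 of the 104 changes were above 0. Above 45 Mb it was 0.64 (quartiles 0.34 and 0.83, 174 genes), and 160 of the 174 were above 0. Over all 15934 genes it was -0.03. As linear ratios of the group means, the medians were 0.937 below 45 Mb, 1.61 above it (168 genes with a ratio) and 0.972 over all genes. By the test of single genes (limma, Benjamini-Hochberg adjusted p under 0.05 over all 15934 genes), 99 genes above 45 Mb rose and 1 fell, and 13 genes below it rose and 12 fell. The background over all genes was 23.8% called, 11.5% higher and 12.4% lower. With each library left out in turn, 79 of the 99 remained called in all 6 fits, and of those below 45 Mb 4 of the 13 and 5 of the 12 did. The 25 calls below 45 Mb became 15, 15 and 14 without shCtrl replicate 1, 2 and 3, and 15 without shHOTAIR replicate 2. The FPKM of the 3 libraries of each group did not overlap for 124 genes higher and 3 lower above 45 Mb, and for 23 higher and 26 lower below it, against 43% over all genes, 19.9% higher and 23.2% lower. In RNA from whole cultures, a change in every cell and a change in some of the cells cannot be told apart.

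**Figure D1:**
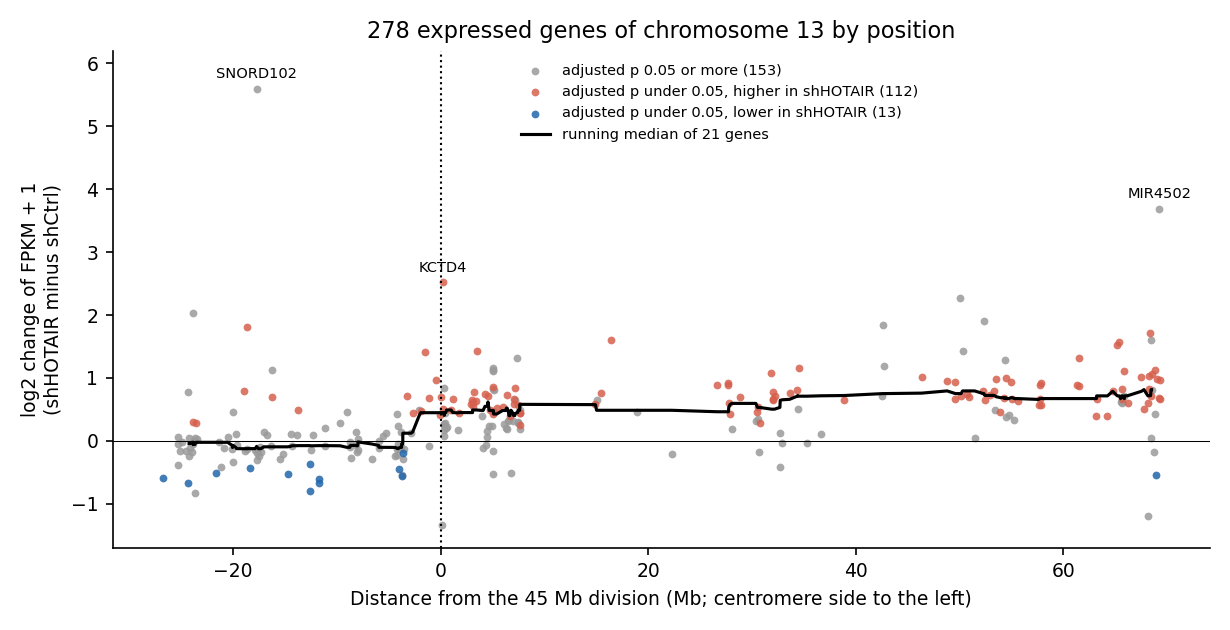
Each point is 1 of the 278 genes, with distance of its midpoint from the 45 Mb division on the x axis (Mb) and its log2 change (shHOTAIR minus shCtrl, FPKM + 1, n = 3 each) on the y axis; colours give the test result and the black line is the running median of 21 genes. The line runs near 0 on the left, rises a few Mb before the division and stays above 0 to the end of the arm.

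Each library kept to its group on the distal side. The median difference from the shCtrl mean over the 174 genes above 45 Mb was -0.01, 0.03 and -0.01 in shCtrl 1, 2 and 3, and 0.64, 0.57 and 0.61 in shHOTAIR 1, 2 and 3. Every shHOTAIR library lay more than 0.5 above every shCtrl library. Below 45 Mb the same medians were -0.01, 0.04 and -0.02 in shCtrl and 0.01, -0.08 and -0.09 in shHOTAIR, and the groups overlapped.

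The change did not have 1 level along the arm. The median was -0.10 over the 95 genes below 42 Mb and 0.48 over the 9 genes from 42 to 45 Mb, all protein-coding, of which 8 were positive and 6 rose. It was 0.45 over the 68 genes from 45 to 55 Mb, with a median ratio of 1.42, and 0.59 over the 34 genes from 55 to 85 Mb, with a ratio of 1.62. From 85 Mb to the end it was 0.74 over 72 genes, with a ratio of 1.74, and 49 of these rose while 1 fell. In bins of 10 Mb the medians were -0.09 (20 to 30 Mb, 46 genes), -0.07 (30 to 40 Mb, 28 genes), 0.26 (40 to 50 Mb, 59 genes) and 0.48 (50 to 60 Mb, 35 genes). Farther out they were 0.60 (70 to 80 Mb, 25 genes), 0.77 (90 to 100 Mb, 24 genes), 0.66 (100 to 110 Mb, 15 genes) and 0.77 (110 to 120 Mb, 30 genes). The bins from 60 to 70 and 80 to 90 Mb held 5 and 6 genes, with medians of 0.64 and 0.69. The differences between these stretches were not tested.

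**Figure D2:**
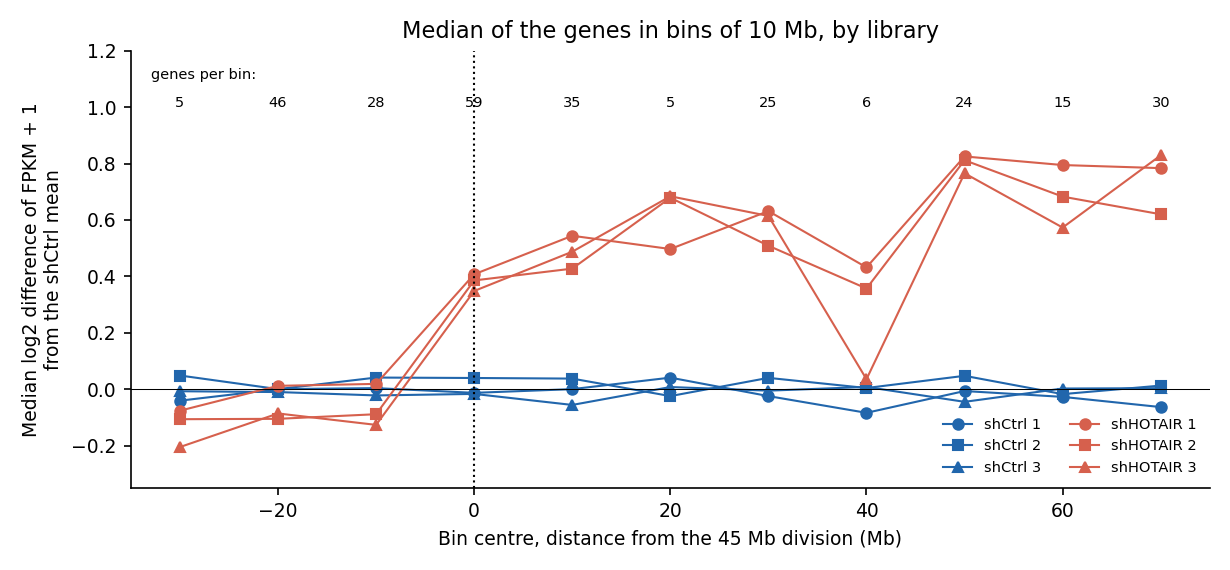
Median log2 difference of FPKM + 1 from the shCtrl mean (y axis) over the genes of each 10 Mb bin, by the distance of the bin centre from the 45 Mb division in Mb (x axis), with 1 line per library and the number of genes printed above each bin. The 3 shHOTAIR lines lie above the 3 shCtrl lines in every bin from the division outward; in the bin of 6 genes, shHOTAIR 3 is at 0.04.

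Between 41 and 44 Mb, single genes went both ways. MTRF1, a release factor of mitochondrial translation at 41.2 Mb, was at 14.3, 12.8 and 13.6 FPKM in shCtrl and 10.2, 9.06 and 7.47 FPKM in shHOTAIR. All 3 shHOTAIR values were below all 3 shCtrl values, with a log2 change of -0.56 (SE 0.11, adjusted p = 0.0205). NAA16, an auxiliary subunit of an N-terminal acetyltransferase, was next at 33.9, 34.7 and 32.2 FPKM in shCtrl and 29.9, 28.5 and 29.7 FPKM in shHOTAIR. It was also lower, a change of -0.19 (SE 0.05, adjusted p = 0.0486) that passed narrowly, and the NAA16 call was lost without any one library (adjusted p = 0.0595 to 0.118). RGCC, a regulator of the cell cycle, was at 5.68, 5.96 and 5.27 FPKM in shCtrl and 4.57, 5.58 and 5.16 FPKM in shHOTAIR, and its groups overlapped. VWA8, a mitochondrial ATPase at 41.8 Mb, was at 6.82, 8.07 and 8.1 FPKM in shCtrl and 11.4, 13.1 and 15.4 FPKM in shHOTAIR. Its groups did not overlap in the opposite direction, with a log2 change of 0.72 (SE 0.12, adjusted p = 0.0124). DGKH, a diacylglycerol kinase between VWA8 and AKAP11, was at 10.1, 8.82 and 9.28 FPKM in shCtrl and 11.4, 9.06 and 10.6 FPKM in shHOTAIR, and its groups overlapped as well (adjusted p = 0.438). AKAP11, an anchor of protein kinase A, was at 17.9, 19.8 and 17.2 FPKM in shCtrl and 28.4, 24.2 and 23.5 FPKM in shHOTAIR, a change of 0.45 (SE 0.09, adjusted p = 0.0221). DNAJC15, a cochaperone of the mitochondrial import motor, was at 65, 56.9 and 60.7 FPKM in shCtrl and 81.5, 80.7 and 93.9 FPKM in shHOTAIR, a change of 0.48 (SE 0.08, adjusted p = 0.0128). Of EPSTI1, an interferon-induced gene between these, the values were 1.08, 0.854 and 0.68 FPKM in shCtrl and 2.06, 1.16 and 1.75 FPKM in shHOTAIR, and the difference did not pass (adjusted p = 0.131). VWA8, AKAP11, EPSTI1, NAA16, RGCC and DGKH were chosen after their values were seen. The MTRF1 call was lost without shCtrl replicate 1, 2 or 3 or shHOTAIR replicate 2 (adjusted p = 0.0601 to 0.0797), and the DNAJC15 call was lost without shCtrl replicate 3 (adjusted p = 0.0514). Likewise, the VWA8 call was lost without shHOTAIR replicate 2 (adjusted p = 0.0545), and the AKAP11 call was lost without shCtrl replicate 1 or 3 or shHOTAIR replicate 2 (adjusted p = 0.0614 to 0.0802).

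Of the 4 genes nearest to 45 Mb on each side, 3 rose below it and 3 above it. Below it, CCDC122, a coiled-coil protein gene, was at 7.92, 4.96 and 5.03 FPKM in shCtrl and 8.99, 10.00 and 11 FPKM in shHOTAIR. The difference, 0.68 (SE 0.18, adjusted p = 0.0457), passed the threshold narrowly, and the CCDC122 call was lost without shCtrl replicate 2 or 3 or shHOTAIR replicate 1, 2 or 3 (adjusted p = 0.086 to 0.143). LACC1, a metabolic enzyme of macrophages that overlaps CCDC122 on the other strand, was at 8.2, 6.25 and 6.09 FPKM in shCtrl and 7.34, 5.99 and 5.82 FPKM in shHOTAIR and did not pass (adjusted p = 0.701). The pair differ in direction although they share bases, and whether strand was used in counting is not stated. TSC22D1, a transcription regulator induced by TGF-beta, was at 44.9, 51.6 and 48.7 FPKM in shCtrl and 97.1, 93.4 and 95.5 FPKM in shHOTAIR. Its level in every shHOTAIR library was close to 2 times that in shCtrl (ratio 1.97), a log2 change of 0.97 (SE 0.06, adjusted p = 0.000889). NUFIP1, a snoRNP assembly factor, was at 6.24, 6.73 and 6.31 FPKM in shCtrl and 9.84, 8.7 and 8.03 FPKM in shHOTAIR, a change of 0.40 (SE 0.09, adjusted p = 0.0237), and the NUFIP1 call was lost without shCtrl replicate 1, 2 or 3 or shHOTAIR replicate 2 (adjusted p = 0.0627 to 0.0855). Above 45 Mb, GPALPP1, whose span holds the division (chr13:44989529-45037669), was at 15.5, 15.4 and 16 FPKM in shCtrl and 24.9, 27.5 and 25.5 FPKM in shHOTAIR, a change of 0.70 (SE 0.06, adjusted p = 0.00141). GTF2F2, the small subunit of the general transcription factor TFIIF, was at 62.5, 67.6 and 63.1 FPKM in shCtrl and 92.2, 91.3 and 92.7 FPKM in shHOTAIR, a change of 0.51 (SE 0.05, adjusted p = 0.00222). AL138693.1, an unprocessed pseudogene shorter than 200 bp, lies inside the span of GTF2F2 on the opposite strand. It was at 12.7, 10.3 and 16 FPKM in shCtrl and 0, 7.57 and 18.2 FPKM in shHOTAIR, and its groups overlapped. KCTD4, the fourth, is described with the genes that departed from their neighbours.

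**Figure D3:**
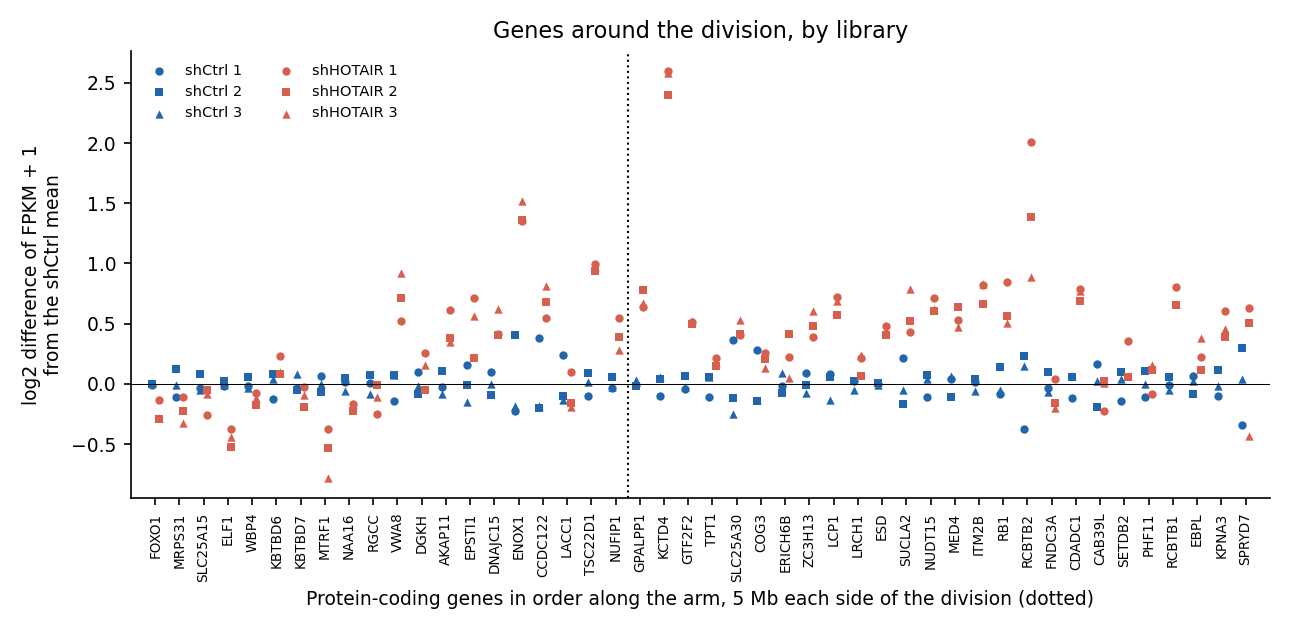
Protein-coding genes within 5 Mb of the division in order along the arm (x axis), each with its 6 libraries as the log2 difference of FPKM + 1 from the shCtrl mean (y axis); the dotted line marks the division. From VWA8 outward most shHOTAIR points lie above the shCtrl points, KCTD4 lies highest, and the shHOTAIR points of LACC1, FNDC3A and CAB39L lie near the shCtrl points.

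The most abundant protein-coding genes of the 2 sides differed in the same way. Below 45 Mb, HSPH1, a chaperone of the HSP110 family, was at 539, 451 and 520.4 FPKM in shCtrl and 457, 551 and 604 FPKM in shHOTAIR, and the groups overlapped. HMGB1, an abundant chromatin protein, was at 226, 246 and 245 FPKM in shCtrl and 252, 257 and 263 FPKM in shHOTAIR: the groups did not overlap, but the change of 0.10 (SE 0.05, adjusted p = 0.226) did not pass. EXOSC8, a subunit of the RNA exosome, was at 192, 222 and 257 FPKM in shCtrl and 214, 203 and 184 FPKM in shHOTAIR and overlapped. GTF3A, the 5S RNA transcription factor, and SAP18, a subunit of a histone deacetylase complex, had changes of -0.13 (SE 0.07, adjusted p = 0.274) and -0.06 (SE 0.06, adjusted p = 0.491). Above 45 Mb, ITM2B, a membrane protein that inhibits amyloid formation, was at 271, 275 and 256 FPKM in shCtrl and 474, 425 and 476 FPKM in shHOTAIR. All shHOTAIR libraries were higher, by 0.77 (SE 0.07, adjusted p = 0.00163) on the log2 scale. IPO5, a nuclear import receptor, was at 249, 250.5 and 230.3 FPKM in shCtrl and 394, 379 and 434 FPKM in shHOTAIR, a change of 0.72 (SE 0.07, adjusted p = 0.00231). STK24, a kinase of the STE20 family, was at 101, 97.6 and 103 FPKM in shCtrl and 186, 188 and 227 FPKM in shHOTAIR, a change of 0.98 (SE 0.09, adjusted p = 0.00189). RNASEH2B, a subunit of ribonuclease H2, was at 133, 119 and 113 FPKM in shCtrl and 154, 172 and 208 FPKM in shHOTAIR, a change of 0.54 (SE 0.13, adjusted p = 0.0313), and the RNASEH2B call was lost without shCtrl replicate 1, 2 or 3 or shHOTAIR replicate 2 or 3 (adjusted p = 0.0536 to 0.105). TPT1, which encodes an abundant translationally controlled protein, was the exception, at 1027, 1153 and 1157 FPKM in shCtrl and 1292, 1233 and 1252 FPKM in shHOTAIR. Its groups did not overlap, yet the change of 0.18 (SE 0.07, adjusted p = 0.118) did not pass.

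Genes of growth control and genome maintenance, 16 of 17 of them measured, were mostly higher above 45 Mb. Of the 10 above 45 Mb, 9 rose, none fell and ING1 did not pass. Their median change was 0.62, against 0.64 over all genes above 45 Mb. For lists of protein-coding genes, the count above 45 Mb stands beside the 88 of 119 such genes there that rose, which is 73.9%. RB1 was at 26.9, 31.6 and 27.6 FPKM in shCtrl and 52.1, 42.8 and 41.1 FPKM in shHOTAIR. Every shHOTAIR value exceeded every shCtrl value, with a change of 0.64 (SE 0.11, adjusted p = 0.0129), while the RB1 call was lost without shCtrl replicate 1 (adjusted p = 0.0544) or shCtrl replicate 3 (adjusted p = 0.057). TFDP1, the partner with which E2F factors bind DNA, was at 79.8, 86.2 and 85.1 FPKM in shCtrl and 177, 179 and 172 FPKM in shHOTAIR. The shHOTAIR libraries were all near 2 times the shCtrl mean, a change of 1.06 (SE 0.05, adjusted p = 0.000408). CUL4A, the scaffold of a ubiquitin ligase that acts on replication and repair proteins, was at 47.2, 54.2 and 66.2 FPKM in shCtrl and 124, 90.8 and 84.7 FPKM in shHOTAIR. Its libraries spread widely within both groups, the change was 0.82 (SE 0.19, adjusted p = 0.0288), and the CUL4A call was lost without shCtrl replicate 1 or 2 or shHOTAIR replicate 1, 2 or 3 (adjusted p = 0.0517 to 0.0941). LIG4, the ligase of non-homologous end joining, was at 7.21, 7.8 and 6.89 FPKM in shCtrl and 11.3, 8.84 and 9.57 FPKM in shHOTAIR. Its change of 0.39 (SE 0.10, adjusted p = 0.044) was smaller than that of its neighbours (0.84), and the LIG4 call was lost without any one library (adjusted p = 0.0586 to 0.14). CDC16, a subunit of the anaphase-promoting complex near the end of the arm, was at 44.6, 48.8 and 47.7 FPKM in shCtrl and 82.2, 73 and 72.5 FPKM in shHOTAIR, a change of 0.68 (SE 0.07, adjusted p = 0.00261). ING1, a chromatin reader, was at 2.19, 1.84 and 3.17 FPKM in shCtrl and 3.56, 4.14 and 4.65 FPKM in shHOTAIR, with no overlap but a change of 0.60 (SE 0.18, adjusted p = 0.0588).

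The 6 growth-control genes below 45 Mb had a median change of -0.01: SKA3 rose, BRCA2 fell and 4 did not pass. BRCA2 was at 13, 12.8 and 10.8 FPKM in shCtrl and 9.14, 9.94 and 8.41 FPKM in shHOTAIR. All shHOTAIR values were lower, by a log2 change of -0.37 (SE 0.10, adjusted p = 0.0419), and the BRCA2 call was lost without shCtrl replicate 1 or 2 or shHOTAIR replicate 1, 2 or 3 (adjusted p = 0.0712 to 0.131). SKA3, which couples kinetochores to microtubules, was at 95.2, 112 and 102 FPKM in shCtrl and 125, 122 and 134 FPKM in shHOTAIR, a change of 0.30 (SE 0.08, adjusted p = 0.0387), and the SKA3 call was lost without shCtrl replicate 1 or 3 or shHOTAIR replicate 1, 2 or 3 (adjusted p = 0.0749 to 0.109). LATS2, a kinase of the Hippo pathway, was at 13.2, 12.4 and 12.3 FPKM in shCtrl and 11.2, 10.8 and 11 FPKM in shHOTAIR: the groups did not overlap, and the change of -0.18 (SE 0.05, adjusted p = 0.0585) did not pass. RB1 and BRCA2, the best known tumour suppressors of the arm, thus moved in opposite directions, and each call depended on single libraries. The RB1 change was near the median of 0.64 over all genes above 45 Mb. By the test of departure given further on, RB1 did not differ from its neighbours (0.16, adjusted p = 0.343).

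Signalling and transcription genes, 20 of 24 measured, split in the same way. Above 45 Mb, 9 of 12 rose, none fell, and the median change was 0.68. The share that rose was near the 73.9% of all protein-coding genes there. GAS6, the ligand of the TAM receptors AXL, MERTK and TYRO3, was at 65.8, 70.7 and 77.4 FPKM in shCtrl and 153, 161 and 156 FPKM in shHOTAIR. The shHOTAIR libraries were all at more than 2 times the shCtrl mean, a change of 1.13 (SE 0.07, adjusted p = 0.000796). EFNB2, a membrane-bound ligand of Eph receptors, was at 3.99, 4.71 and 4.35 FPKM in shCtrl and 12.8, 11.5 and 12.8 FPKM in shHOTAIR. It changed by 1.32 (SE 0.08, adjusted p = 0.000768), more than its neighbours, whose median was 0.76. IRS2, which relays insulin and IGF receptor signals, was at 4.8, 4.67 and 4.95 FPKM in shCtrl and 9.52, 8.88 and 8.67 FPKM in shHOTAIR, a change of 0.79 (SE 0.07, adjusted p = 0.00147). ZIC2, a zinc-finger factor of neural development, was at 7.29, 6.87 and 6.8 FPKM in shCtrl and 15.6, 13.6 and 13.9 FPKM in shHOTAIR, a change of 0.94 (SE 0.07, adjusted p = 0.00124). DACH1, a transcription corepressor, was at 0.53, 0.575 and 0.492 FPKM in shCtrl and 2.04, 1.75 and 1.73 FPKM in shHOTAIR, a change of 0.89 (SE 0.15, adjusted p = 0.0105). It passed the minimum of 1 FPKM through shHOTAIR alone, so it had to differ. RAP2A, a small GTPase, was at 10.2, 9.73 and 9.56 FPKM in shCtrl and 16.5, 15.4 and 16.3 FPKM in shHOTAIR, a change of 0.66 (SE 0.06, adjusted p = 0.00157).

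The 3 signalling genes above 45 Mb that did not pass were SPRY2, KLF5 and EDNRB. SPRY2, a Sprouty protein that dampens signals from receptor tyrosine kinases to ERK, was at 30.7, 31.8 and 32.4 FPKM in shCtrl and 31.1, 31 and 30.2 FPKM in shHOTAIR. The groups overlapped within a narrow range, and the change was -0.04 (SE 0.05, adjusted p = 0.556). KLF5, a Krüppel-like factor of epithelial growth, was at 10.3, 9.29 and 10.1 FPKM in shCtrl and 12.3, 11 and 10.9 FPKM in shHOTAIR, with a change of 0.19 (SE 0.07, adjusted p = 0.125). EDNRB, a receptor of endothelins, was low at 1.14, 1.22 and 0.964 FPKM in shCtrl and 0.981, 1.08 and 1.13 FPKM in shHOTAIR, and its groups overlapped. All 3 lay below their neighbours by the test of departure given further on.

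Below 45 Mb, 1 of 8 signalling genes rose (TSC22D1) and 2 fell, with a median of -0.02. STARD13, a GTPase-activating protein, was at 40.1, 35.8 and 38.6 FPKM in shCtrl and 23.5, 22.1 and 25.7 FPKM in shHOTAIR. Every shHOTAIR value was lower than every shCtrl value, with a change of -0.66 (SE 0.08, adjusted p = 0.00352). STARD13-AS, an antisense RNA within its span, was at 3.93, 5.06 and 3.77 FPKM in shCtrl and 2.12, 2.39 and 2.86 FPKM in shHOTAIR, a change of -0.60 (SE 0.14, adjusted p = 0.0312). It was chosen after its values were seen, reads of the pair may not have been told apart, and the STARD13-AS call was lost without shCtrl replicate 1, 2 or 3 or shHOTAIR replicate 1 or 2 (adjusted p = 0.0597 to 0.0924). ELF1, an ETS transcription factor at 41.0 Mb, was at 19.8, 20.4 and 19.9 FPKM in shCtrl and 15.2, 13.6 and 14.5 FPKM in shHOTAIR, a change of -0.45 (SE 0.06, adjusted p = 0.00501). DCLK1, a microtubule-associated kinase, was at 1.22, 1.58 and 1.33 FPKM in shCtrl and 2.55, 1.98 and 2.31 FPKM in shHOTAIR and did not pass (adjusted p = 0.0599). FOXO1, a factor held in check by AKT, had a change of -0.23 (SE 0.08, adjusted p = 0.1) and did not pass.

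All 7 measured genes of the matrix, adhesion and surface list, out of 18, lay above 45 Mb, and all 7 rose, with a median change of 1.04. Of all protein-coding genes above 45 Mb 73.9% rose, the other 11 listed genes did not reach the minimum of 1 FPKM, and PCDH20 reached it through shHOTAIR alone, so the count is a description. COL4A1 was at 2.22, 2.62 and 2.3 FPKM in shCtrl and 8.41, 9.94 and 7.85 FPKM in shHOTAIR. COL4A2 was at 6.84, 5.94 and 4.33 FPKM in shCtrl and 16.4, 22.4 and 18 FPKM in shHOTAIR. The shHOTAIR libraries of both were more than 2 times any shCtrl library of the same gene, and the changes were 1.52 (SE 0.11, adjusted p = 0.0011) and 1.58 (SE 0.18, adjusted p = 0.00347). RefSeq places both starts at the ends of the CpG-rich interval printed above, and in GENCODE 29 their spans overlap on opposite strands. PCDH20, a protocadherin, was at 0.481, 0.576 and 0.525 FPKM in shCtrl and 3.9, 3.52 and 3.54 FPKM in shHOTAIR. It was under 1 FPKM in every shCtrl library and above 3 FPKM in every shHOTAIR library, a change of 1.61 (SE 0.12, adjusted p = 0.00116). GPC6, a heparan sulfate proteoglycan of the cell surface, was at 1.27, 1.67 and 1.21 FPKM in shCtrl and 3.99, 3.36 and 3.39 FPKM in shHOTAIR, a change of 0.94 (SE 0.13, adjusted p = 0.00597). LAMP1, a major lysosomal membrane protein, was at 25.7, 26.8 and 27.1 FPKM in shCtrl and 54.2, 55.2 and 57 FPKM in shHOTAIR, a change of 1.04 (SE 0.05, adjusted p = 0.000406). TM9SF2, a membrane protein of endosomes and Golgi, was at 79.2, 94.3 and 89.6 FPKM in shCtrl and 187, 170.4 and 168 FPKM in shHOTAIR, a change of 0.99 (SE 0.08, adjusted p = 0.00153). ABCC4, an exporter of cyclic nucleotides and drugs, was at 15.8, 19.1 and 15.4 FPKM in shCtrl and 30.7, 26.8 and 27 FPKM in shHOTAIR, a change of 0.72 (SE 0.10, adjusted p = 0.00669). POSTN and GPC5 were among the genes under the minimum.

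Mitochondrial and metabolic genes, all 17 measured, gave 6 rises and no fall among 9 genes above 45 Mb (median 0.58), and 1 rise (DNAJC15) and 1 fall (MTRF1) among 8 below (median -0.16). SUCLA2, a subunit of succinyl-CoA ligase, was at 40.3, 30.6 and 33.3 FPKM in shCtrl and 46.9, 49.99 and 60.2 FPKM in shHOTAIR, a change of 0.58 (SE 0.14, adjusted p = 0.0318), and the SUCLA2 call was lost without shCtrl replicate 2 or 3 or shHOTAIR replicate 1, 2 or 3 (adjusted p = 0.0526 to 0.107). NAXD, which repairs hydrated NAD(P)H, changed by 0.83 (SE 0.07, adjusted p = 0.0018), and UGGT2, a folding sensor of the endoplasmic reticulum, by 0.70 (SE 0.11, adjusted p = 0.00961). PCCA, a subunit of propionyl-CoA carboxylase, was at 3.06, 4.63 and 3.59 FPKM in shCtrl and 4.18, 5.28 and 5.33 FPKM in shHOTAIR, and its groups overlapped. ATP7B, the copper transporter of Wilson disease, and SLC25A30, a mitochondrial carrier, had changes of 0.32 (SE 0.14, adjusted p = 0.15) and 0.45 (SE 0.17, adjusted p = 0.111) and did not pass.

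Genes of RNA, ribosome and protein turnover, all 22 measured, gave 9 rises and no fall among 10 above 45 Mb (median 0.61, TPT1 not passing), and 1 rise (NUFIP1) among 12 below (median -0.15). MED4, a Mediator subunit, changed by 0.55 (SE 0.07, adjusted p = 0.00568), UCHL3, a ubiquitin hydrolase, by 0.53 (SE 0.07, adjusted p = 0.00574), and DNAJC3, a cochaperone that inhibits the kinase PERK, by 0.75 (SE 0.06, adjusted p = 0.00116). RPL21, a ribosomal protein of the large subunit, and POLR1D, a subunit shared by RNA polymerases I and III, had changes of -0.19 (SE 0.09, adjusted p = 0.166) and -0.18 (SE 0.07, adjusted p = 0.121) and did not pass.

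Of the microRNA and long non-coding hosts, 4 of 7 were measured, all above 45 Mb, and 3 rose (median 0.69). Beside this stand 11 of 55 genes of non-coding and other types there that rose, and a median of 0.64 over all genes above 45 Mb. MIR17HG, the host of the miR-17-92 microRNAs printed above, was at 5.82, 6.3 and 5.56 FPKM in shCtrl and 15, 12.4 and 11.6 FPKM in shHOTAIR. Every shHOTAIR value exceeded every shCtrl value, a change of 1.01 (SE 0.11, adjusted p = 0.00277). DLEU2, the host of miR-15a and miR-16-1, was at 11.3, 14 and 13.9 FPKM in shCtrl and 28.4, 22.8 and 21.9 FPKM in shHOTAIR, a change of 0.85 (SE 0.13, adjusted p = 0.00835). DLEU1, which overlaps DLEU2 on the other strand, was at 23, 21.7 and 23.4 FPKM in shCtrl and 33.7, 32.6 and 32.6 FPKM in shHOTAIR, a change of 0.52 (SE 0.05, adjusted p = 0.0022). The hosts of both clusters, known for opposite roles in proliferation, were thus higher in the same libraries. By the test of departure given further on, MIR17HG (0.30, adjusted p = 0.092), DLEU2 (0.44, adjusted p = 0.0705) and DLEU1 (0.12, adjusted p = 0.239) did not depart from their neighbours. TPT1-AS1 was at 13.2, 10.7 and 6.8 FPKM in shCtrl and 13.5, 13.2 and 9.9 FPKM in shHOTAIR, and its groups overlapped.

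To ask which genes differed from their surroundings, each gene's log2 value in each library was set against the median of the 20 nearest tested protein-coding genes, and the centred values were tested with limma over 15359 genes. A departure is the change that remains. Of the 278 genes 48 departed, which is 17.3%, beside 14.2% over all genes tested (7.47% upward and 6.7% downward), a share near that background. Upward were 11 genes below 45 Mb and 11 above, and downward 11 below and 15 above. The centred values of the 2 groups did not overlap for any of the 48. They were selected by the test on these same values, so this adds no support. With each library left out in turn, 6 of the 22 upward and 7 of the 26 downward remained called in all 6 fits. The 48 became 20, 23 and 22 without shCtrl replicate 1, 2 and 3, and 31, 22 and 22 without shHOTAIR replicate 1, 2 and 3. The 6 were TSC22D1, SLC46A3, SHISA2, EFNB2, KCTD4 and PCDH20, and the 7 were ELF1, STARD13, FNDC3A, DHRS12, SPRY2, RPSAP53 and LINC00452.

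KCTD4, a BTB-domain protein gene inside the span of GTF2F2 on the opposite strand, had the largest upward departure of the genes that passed this test. Larger departures that did not pass included SNORD102 (5.72, adjusted p = 0.142) and RF00086 (2.10, adjusted p = 0.447), both shorter than 200 bp. KCTD4 is described first. It was at 0.483, 0.631 and 0.653 FPKM in shCtrl and 8.61, 7.35 and 8.51 FPKM in shHOTAIR. It went from under 1 FPKM in every shCtrl library to above 7 FPKM in every shHOTAIR library, a ratio of 13.8. It passed the minimum of 1 FPKM through shHOTAIR alone, so a gene at its shCtrl level had to be higher in shHOTAIR to be tested. The same holds for PCDH20 and GRTP1. Its change was 2.53 (SE 0.11, adjusted p = 0.000381) where its neighbours had a median of 0.50, a departure of 2.03 (SE 0.12, adjusted p = 0.000683). GTF2F2 around it had a centred change of 0.00 (SE 0.07, adjusted p = 0.989). PCDH20, whose values stand above, departed by 1.05 (SE 0.12, adjusted p = 0.00476) from neighbours at 0.55. ENOX1, a hydroquinone oxidase of the cell surface at 43.5 Mb, was at 2.12, 3.84 and 2.21 FPKM in shCtrl and 8.35, 8.36 and 9.44 FPKM in shHOTAIR. It departed by 1.08 (SE 0.20, adjusted p = 0.0198), and the ENOX1 departure was lost without shCtrl replicate 1 or 3 or shHOTAIR replicate 1, 2 or 3 (adjusted p = 0.057 to 0.0742). GRTP1, a TBC-domain protein next to LAMP1, was at 0.547, 0.108 and 0.39 FPKM in shCtrl and 3.81, 3.58 and 2.81 FPKM in shHOTAIR, a ratio of 9.76. It departed by 0.91 (SE 0.21, adjusted p = 0.0409), and the GRTP1 departure was lost without shCtrl replicate 2 or 3 or shHOTAIR replicate 1, 2 or 3 (adjusted p = 0.0508 to 0.104). COL4A1 departed by 0.74 (SE 0.14, adjusted p = 0.0203), and the COL4A1 departure was lost without shCtrl replicate 1, 2 or 3 or shHOTAIR replicate 1 (adjusted p = 0.0507 to 0.0706). COL4A2, with nearly the same change and more spread, had a departure of 0.79 (SE 0.21, adjusted p = 0.0616) and did not pass.

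Smaller upward departures above 45 Mb included EFNB2, at 0.56 (SE 0.07, adjusted p = 0.00664), and NDFIP2 and KCTD12. NDFIP2, an adaptor that recruits ubiquitin ligases of the NEDD4 family, was at 25.6, 28.8 and 25.6 FPKM in shCtrl and 68.5, 53.5 and 60.9 FPKM in shHOTAIR. It departed by 0.62 (SE 0.09, adjusted p = 0.0104). KCTD12, an auxiliary subunit of GABA-B receptors, was at 6.79, 8.06 and 7.57 FPKM in shCtrl and 18.6, 15.9 and 16 FPKM in shHOTAIR and departed by 0.52 (SE 0.09, adjusted p = 0.0169). NDFIP2 and KCTD12 were chosen after their values were seen. NDFIP2 lies near SPRY2, and KCTD12 lies near EDNRB with MYCBP2 and SLAIN1 between them. SPRY2 and EDNRB departed downward, and MYCBP2 and SLAIN1 did not depart. In fits with 1 library left out, the NDFIP2 departure was lost without shCtrl replicate 1 (adjusted p = 0.051), and the KCTD12 departure was lost without shCtrl replicate 3 (adjusted p = 0.0627) or shHOTAIR replicate 2 (adjusted p = 0.0534). GAS6 departed by 0.32 (SE 0.08, adjusted p = 0.046), and the GAS6 departure was lost without any one library (adjusted p = 0.0586 to 0.115). ITM2B, BORA and RCBTB1 completed the 11, with departures from 0.26 to 0.34.

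Below 45 Mb, away from the division, the neighbours' medians were near 0. SHISA2, a protein of the endoplasmic reticulum that holds back WNT and FGF receptors, was at 6.76, 9.66 and 7.44 FPKM in shCtrl and 15.7, 13.4 and 14.3 FPKM in shHOTAIR. All shHOTAIR values were higher, and it departed by 0.91 (SE 0.12, adjusted p = 0.00748) from neighbours at -0.11. SLC46A3, a lysosomal transporter, was at 2.49, 2.83 and 2.56 FPKM in shCtrl and 5.07, 4.93 and 4.71 FPKM in shHOTAIR. Its libraries were tight in both groups, with a departure of 0.83 (SE 0.09, adjusted p = 0.00384). TSC22D1 departed by 0.50 (SE 0.08, adjusted p = 0.0159) from neighbours that had themselves a median change of 0.46. RF02271, a short RNA of 174 bases, lies within the span of CDK8 on the opposite strand. It was listed at 0, 0 and 0 FPKM in shCtrl and 1.35, 2.42 and 4.37 FPKM in shHOTAIR. It passed the minimum through shHOTAIR alone and departed by 1.92 (SE 0.34, adjusted p = 0.0181), and the RF02271 departure was lost without shCtrl replicate 1, 2 or 3 or shHOTAIR replicate 2 (adjusted p = 0.0575 to 0.0628). AKAP11, VWA8, DCLK1, SKA3, B3GLCT and ZDHHC20 made up the rest, with departures from 0.38 to 0.73.

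LINC00452, a long non-coding RNA at 113.9 Mb, departed most of the genes called downward, and it was the 1 gene above 45 Mb that fell. It was at 2.73, 2.83 and 2.16 FPKM in shCtrl and 1.37, 1.38 and 1.6 FPKM in shHOTAIR. All shHOTAIR values were lower, a change of -0.54 (SE 0.13, adjusted p = 0.0346) where the neighbours' median was 0.83, and a departure of -1.37 (SE 0.15, adjusted p = 0.00394). The LINC00452 call was lost without shCtrl replicate 1 or 2 or shHOTAIR replicate 1 or 2 (adjusted p = 0.062 to 0.0745), while the departure was called in all 6 of these fits. DHRS12, a dehydrogenase of the short-chain family, was at 10.1, 8.51 and 7.02 FPKM in shCtrl and 4.97, 6.03 and 5.93 FPKM in shHOTAIR. Its groups did not overlap: the change of -0.52 (SE 0.14, adjusted p = 0.0506) did not pass, and the departure was -0.96 (SE 0.14, adjusted p = 0.0107). RPSAP53, a processed pseudogene of a ribosomal protein gene, was at 8.7, 8.27 and 8.32 FPKM in shCtrl and 7.47, 6.28 and 7.68 FPKM in shHOTAIR and departed by -0.80 (SE 0.08, adjusted p = 0.00299). Reads of such a copy can come from its parent gene or other copies, so its value is uncertain. SPRY2 departed by -0.65 (SE 0.05, adjusted p = 0.00157) from neighbours at 0.61.

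Of the other downward genes above 45 Mb, TMEM255B, a membrane protein gene next to GAS6, was at 8.68, 5.29 and 5.67 FPKM in shCtrl and 4.17, 6.29 and 6.36 FPKM in shHOTAIR. Its groups overlapped, and it departed by -1.03 (SE 0.24, adjusted p = 0.0431). ADPRHL1, an ADP-ribosylhydrolase-like gene of heart, was at 1.23, 1.57 and 1.26 FPKM in shCtrl and 1.3, 1.47 and 1.51 FPKM in shHOTAIR and departed by -0.80 (SE 0.15, adjusted p = 0.0197). HS6ST3, a heparan sulfate sulfotransferase, was at 0.975, 1.07 and 0.959 FPKM in shCtrl and 1.12, 0.97 and 1.09 FPKM in shHOTAIR and departed by -0.68 (SE 0.14, adjusted p = 0.0293). These departures depended on single libraries: the TMEM255B departure was lost without any one library (adjusted p = 0.0776 to 0.0964), the ADPRHL1 departure was lost without shCtrl replicate 1 or 2 or shHOTAIR replicate 3 (adjusted p = 0.0533 to 0.0557), and the HS6ST3 departure was lost without shCtrl replicate 1, 2 or 3 or shHOTAIR replicate 2 or 3 (adjusted p = 0.0575 to 0.0656). FNDC3A, a fibronectin type III domain protein at 49.1 Mb and near RB1, was at 25.5, 28 and 24.7 FPKM in shCtrl and 26.8, 23.1 and 22.5 FPKM in shHOTAIR. Its groups overlapped, and it departed by -0.61 (SE 0.07, adjusted p = 0.0057) and was chosen after its values were seen. KLF5 departed by -0.44 (SE 0.07, adjusted p = 0.0112), and the KLF5 departure was lost without shHOTAIR replicate 2 (adjusted p = 0.0506). EDNRB departed by -0.64 (SE 0.15, adjusted p = 0.0453), and the EDNRB departure was lost without any one library (adjusted p = 0.0614 to 0.102). The ADPRHL1, HS6ST3 and EDNRB departures were also lost with a pseudocount of 0.1 FPKM. These genes were near 1 FPKM, where log2(FPKM + 1) understates changes. The part of this in their departures was not tested. LIG4, PHF11, LRCH1, AL161431.1 and AL138963.3 completed the 15, with departures from -0.37 to -0.45.

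Of the 11 downward genes below 45 Mb, 10 also fell before centring, and LACC1 did not pass. STARD13 departed by -0.65 (SE 0.09, adjusted p = 0.00803) and ELF1 by -0.43 (SE 0.05, adjusted p = 0.00677). IFT88, a core protein of transport in cilia, was at 13.3, 11.7 and 12.3 FPKM in shCtrl and 6.89, 8.22 and 7.33 FPKM in shHOTAIR and departed by -0.61 (SE 0.10, adjusted p = 0.0145). It was chosen after its values were seen. AL137247.1, a transcript that overlaps N4BP2L2 on the same strand, was at 2.83, 3.19 and 2.02 FPKM in shCtrl and 1.07, 1.24 and 1.01 FPKM in shHOTAIR and departed by -0.80 (SE 0.16, adjusted p = 0.0274). The IFT88 departure was lost without shCtrl replicate 1 (adjusted p = 0.0541) or shCtrl replicate 3 (adjusted p = 0.0574), and the AL137247.1 departure was lost without shCtrl replicate 1 or 2 or shHOTAIR replicate 1, 2 or 3 (adjusted p = 0.0617 to 0.0897). BRCA2 departed by -0.41 (SE 0.10, adjusted p = 0.0497), and the BRCA2 departure was lost without any one library (adjusted p = 0.0618 to 0.141). LACC1 departed by -0.57 (SE 0.13, adjusted p = 0.0437), and the LACC1 departure was lost without shCtrl replicate 1, 2 or 3 or shHOTAIR replicate 2 or 3 (adjusted p = 0.0852 to 0.13). MTRF1, STARD13-AS, WASF3 and NAA16 departed by -0.59 to -0.22.

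**Figure D4:**
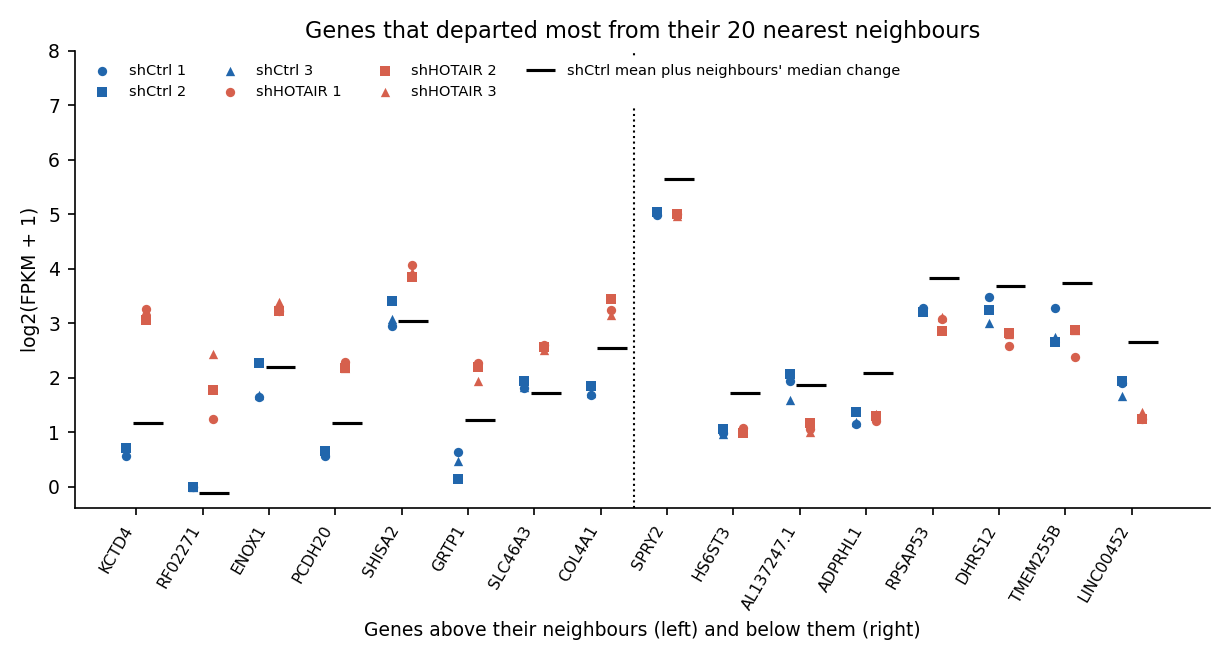
log2(FPKM + 1) of each library (y axis), with black bars at the shCtrl mean plus the median change of the 20 neighbours. Shown are the 8 genes each way with the largest departures that passed, upward left of the dotted line and downward right of it. On the left the shHOTAIR points lie above the bar; on the right they lie under it, and for SPRY2, HS6ST3 and ADPRHL1 they lie among the shCtrl points.

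Several members owed their place to few values. Of the 278, 24 passed the minimum through the shHOTAIR mean alone, 8 below 45 Mb and 16 above, and 3 through the shCtrl mean alone, all below. Of the 24, 6 were called, 5 of them above 45 Mb (KCTD4, PCDH20, DACH1, LINC00460 and GRTP1) and RF02271 below. Without all genes of either kind, 95 of 158 were called above 45 Mb, with a median change of 0.61, and 23 of 93 below it, with a median of -0.09. Of the 33 genes shorter than 200 bp, 9 were listed at 0 in all shCtrl libraries and 1 was called. SNORD102, a small nucleolar RNA inside RPL21, had the largest change of the 278, yet it was at 185, 0.217 and 502 FPKM in shHOTAIR and under 0.001 FPKM in shCtrl, and the change did not pass (adjusted p = 0.136). MIR4502 was listed at 0, 0 and 0 FPKM in shCtrl and 0, 58.5 and 35.2 FPKM in shHOTAIR, with 1 shHOTAIR library at 0. RF02108, a conserved RNA element of 58 bases, lies within the span of DLEU2 on the opposite strand. It was the member of highest level, at 1299, 3515 and 1816 FPKM in shCtrl and 2299.9, 7985 and 4654 FPKM in shHOTAIR, and its groups overlapped. These 3 were chosen after their values were seen. With the genes shorter than 200 bp left out, the median change was -0.09 over 94 genes below 45 Mb and 0.62 over 151 above. Long non-coding and other types above 45 Mb had a median of 0.49, with 11 of 55 rising and 1 falling, and protein-coding genes 0.65, with 88 of 119 rising and none falling.

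The change above 45 Mb was of similar size across levels and lengths of genes, which was not tested. With the 119 protein-coding genes split into 3 by mean FPKM the median changes were 0.65, 0.67 and 0.64 from low to high, and 24 of 40, 28 of 39 and 36 of 40 rose. Split into 3 by gene length they were 0.65, 0.66 and 0.62. The ratio of the group means was between 1.2 and 2 for 83 of the 119, at 2 or more for 19, between 0.8 and 1.2 for 16 and under 0.8 for 1, DHRS12. Below 45 Mb, 57 of 83 were between 0.8 and 1.2. Both sides had a median within-group coefficient of variation of 0.083 to 0.096. Annotated overlap was common: 82 genes overlapped another member on the opposite strand, and 39 of the 82, or 47.6%, were called, beside 125 of the 278 members and 23.8% of all genes tested.

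RefSeq promoters, taken as the 250 bases before the start, were matched by symbol for 192 of the 278 genes. Only 1 start was kept per symbol, and for some genes it lies far from the start that GENCODE 29 gives. RB1 was taken at 48476450 (GENCODE start 48303726), STARD13, on the minus strand, at 33676794 (33350630) and STARD13-AS at 33277554 (33180401). The median was 22 CpG, against 10 over all 27326 promoters of the table, and it was 22 below 45 Mb (75 genes) and 23 above (117 genes). All promoters of the table were taken without a minimum FPKM, so the sets are unlike. The contrast, here and for the motifs below, thus cannot be read as a trait of the chromosome. GGGCGG, the GC box, was found on either strand in 58.3% of them and in 42.2% of all promoters, CCAAT in 30.2% and 33.0%, and TATAAA in 9.38% and 11.2%. None of the 3 motifs holds another. Of the 17 matched genes that departed upward, 12 held GGGCGG, 8 CCAAT and 1 TATAAA. Of the 19 that departed downward, 7 held GGGCGG, 4 CCAAT and 5 TATAAA, namely STARD13, STARD13-AS, ELF1, KLF5 and ADPRHL1. Of the 156 that did not depart, 93 held GGGCGG (59.6%), 46 CCAAT (29.5%) and 12 TATAAA (7.69%). The differences between these sets were not tested. A match is a description of letters and not a site.

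Chromosome 13 had the highest median change of the 23 chromosomes compared, 0.42, followed by X at 0.27 and 21 at 0.25. Its share of called genes, 44.96%, was second to that of chromosome 10, where 59.6% were called. On chromosome 10 the direction was opposite: the median change was -0.50 over 589 genes, with 16 higher and 335 lower. On chromosome 4 the share was 44.4% of 563 genes, but the median was 0.11, with 140 higher and 110 lower. These comparisons share all 6 libraries, and the differences between chromosomes were not tested. On chromosome 13 the called genes above 45 Mb were 99 higher and 1 lower, while the stretch below 45 Mb, with 24.0% called, was close to the background of 23.8%.

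At the minimum of 1 FPKM the last genes inside were AL161421.1, HS6ST3, AL359513.1 and MIR4500HG, with means over the 6 libraries of 1.00, 1.03, 1.04 and 1.04 FPKM. The first outside were AL136301.1, RPS4XP16, LGMNP1 and AL442125.2, at 0.995, 0.985, 0.960 and 0.936 FPKM. Of 1274 chromosome 13 genes matched in the table, 729 were above 0 in at least 1 library.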

How the data were processed

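The authors deposited 1 table of FPKM values (fragments per kilobase, scaled to library size) for 65198 genes in 6 libraries. Per the labels' protocols, a PrepX mRNA kit was used on poly(A)-selected RNA. TopHat2 2.0.13, DESeq and GRCh38 were used, per the submitters' processing notes. Which program, annotation and strand setting gave the FPKM is not stated in the labels or headers, and read depth is unknown. Gene type and position came from GENCODE 29 by identifier (56807 genes matched, 8391 not).

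Genes averaging 1 FPKM or more were analysed as log2(FPKM + 1), without rescaling, with limma 3.58.1 in R 4.3.3 (intensity trend, no replicate block, Benjamini-Hochberg over 15934 genes, threshold 0.05). For departures, the median of the 20 nearest protein-coding genes was subtracted in each library; 533 tested genes without a position stayed out. The code was tested on simulated data. Named were the 5 most abundant protein-coding genes of each side, the 4 genes nearest 45 Mb on each side, and list members. The 8 largest departures each way that passed were also named. The members and lists were chosen with earlier results of these data known. Alternatives were other pseudocounts, minimums, scaling, trend, block, neighbours, divisions, gene types and single libraries left out. Errors are over 3 libraries. One gene of the lists is not reported here.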

Additional observations from a re-analysis of the deposited data

How the results depend on the processing

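Rescaling each library, dropping the trend and removing genes shorter than 200 bp (added after seeing the data) kept every regional value and count within its limits. The median change below 45 Mb, -0.08, turned positive with no minimum level, 0.0018, and with the division at 50 Mb, 0.046. That above 45 Mb, 0.64, was 0.58 with the division at 40 Mb, 0.70 with a pseudocount of 0.1 FPKM, 0.10 with no minimum and 0.61 without genes whose mean in either group was under 1 FPKM (added after seeing the data). With 1 library left out these medians ranged from -0.10 to -0.05 below and from 0.60 to 0.64 above. The 100 calls above 45 Mb became 88 to 90 with 1 library left out. The 25 calls below it became 14 to 21, or 15 and 41 with the division at 40 and 50 Mb. The 48 departing genes became 20 to 31 with 1 library left out, fewest without shCtrl replicate 1, and 246 with no minimum. Of the 45 called with 10 neighbours 38 were among the 48, and of the 56 with 50 neighbours 41 were. With a pseudocount of 0.1 FPKM 43 of the 47 called were among the 48. The departures of ADPRHL1, EDNRB, GAS6, HS6ST3 and NAA16 were lost with that pseudocount. Deviations of same-numbered libraries did not correlate (r = -0.022, 0.007 and -0.031), so no shared effect of the replicate number was seen. With 3 libraries per group this cannot tell whether same-numbered cultures were handled together. With the replicate number as a block, 8 genes below 45 Mb, 68 above it and 8 departures were called. Read depth, which limits low genes, is unknown, and no interval for counting error can be given.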
